A study of Arabidopsis thaliana with 4 samples.

Results

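The clade A protein phosphatases 2C (PP2Cs) were followed in dark-grown *Arabidopsis thaliana* seedlings that received air or ethylene. The group has 9 loci, ABI1, ABI2, HAB1, HAB2, AHG1, AHG3, HAI1, HAI2 and HAI3, taken by locus identifier. The list was drawn up with earlier results of these data known. All 9 had a row of their own in the table of 32878 rows, none lay in a row merged with a neighbouring gene, and all 9 were among the 18696 named rows with a test. Whole seedlings at the age of 3 days were used, all of the double mutant genotype *daz3* *tree1* in COL background, so the mutations were carried by the air group as well. The air group was kept for 4 hours in hydrocarbon-free air, to which 10 ppm ethylene was added for the ethylene group. Each group had 2 RNA-seq libraries, and the labels do not say whether these came from separate cultures.

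Abscisic acid (ABA) is a plant hormone of drought, seed dormancy and growth arrest. Clade A PP2Cs are its co-receptors and brakes. Without ABA they dephosphorylate SnRK2 kinases and keep them inactive. With ABA, receptors of the PYR/PYL family bind the phosphatase and block it, so that SnRK2 kinases can phosphorylate ABF transcription factors. Genes of several clade A phosphatases are themselves induced by ABA, through promoter elements with an ACGT core known as ABRE, which is a known negative feedback in the pathway. Ethylene and ABA act on overlapping aspects of seedling growth.

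Of the 9 members 7 had higher transcript levels in the ethylene group at any p, and 4 passed the test. Of all tested rows above 0 in both groups, 8893 were higher and 9607 lower. ABI1, ABI2, AHG3 and HAI1 were called higher and 0 members lower, at a Benjamini-Hochberg adjusted p of at most 0.05. Among all tested rows 2.17% were called higher and 4.18% lower. The median log2 fold change of the 9 members was 0.66, beside -0.02 over all tested rows. At an unadjusted p under 0.05, 6 members were higher and 0 lower, where 7.74% of all rows were higher and 11% lower. FPKM values here are the authors' value for each group from the deposited table, and count reads per transcript length and library size. They summed over the 9 members to 268.4 in air and 498.5 with ethylene, a ratio of 1.86 that was not tested.

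The upstream sequence of members is shown because ABRE elements are known in this family. Their part in the changes was not tested. The 300 bases before the annotated start of 4 genes are printed 5′ to 3′ on the gene's strand, from the RefSeq TAIR10.1 genome. AHG3 and ABI1 are the members with the largest rises, HAI1 rose without a match, and HAI3 held matches and did not pass the test. Capitals mark the ABRE core ACGTG on either strand, so CACGT is the same core read on the other strand. The windows are chr3:3585851-3586150 and chr4:13222377-13222676 on the minus strand for AHG3 and ABI1, chr5:23896940-23897239 on the minus strand for HAI1 and chr2:12608375-12608674 on the plus strand for HAI3.
AHG3: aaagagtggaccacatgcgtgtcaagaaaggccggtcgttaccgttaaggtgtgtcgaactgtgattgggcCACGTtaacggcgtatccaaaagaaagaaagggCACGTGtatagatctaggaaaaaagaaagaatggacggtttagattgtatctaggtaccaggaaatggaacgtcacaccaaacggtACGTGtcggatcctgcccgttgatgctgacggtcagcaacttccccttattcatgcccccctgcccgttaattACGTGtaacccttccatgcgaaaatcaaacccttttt
ABI1: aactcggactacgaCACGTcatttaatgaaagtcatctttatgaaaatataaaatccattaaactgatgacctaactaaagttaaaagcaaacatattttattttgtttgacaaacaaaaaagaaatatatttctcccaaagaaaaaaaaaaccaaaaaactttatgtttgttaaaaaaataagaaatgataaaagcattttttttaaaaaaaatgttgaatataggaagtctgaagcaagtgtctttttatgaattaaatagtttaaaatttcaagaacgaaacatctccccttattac
HAI1: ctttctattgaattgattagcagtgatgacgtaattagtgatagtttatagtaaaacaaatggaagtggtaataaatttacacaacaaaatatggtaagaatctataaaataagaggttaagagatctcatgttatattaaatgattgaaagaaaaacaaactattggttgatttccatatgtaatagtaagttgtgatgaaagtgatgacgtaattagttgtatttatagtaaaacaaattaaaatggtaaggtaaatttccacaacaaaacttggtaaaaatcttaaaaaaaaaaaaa
HAI3: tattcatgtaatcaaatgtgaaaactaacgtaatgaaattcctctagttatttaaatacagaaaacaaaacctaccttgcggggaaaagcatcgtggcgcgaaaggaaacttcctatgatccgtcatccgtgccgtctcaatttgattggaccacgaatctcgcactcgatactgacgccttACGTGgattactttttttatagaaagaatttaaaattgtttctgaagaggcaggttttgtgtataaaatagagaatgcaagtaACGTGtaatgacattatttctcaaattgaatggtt

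The core ACGTG was present upstream of 7 of 9 members, and in 25.6% of 27443 nuclear protein-coding promoters of the same length. AHG3 and HAI2 each had 5 matches. In AHG3 2 of the 5 overlapped in 1 G-box, the palindrome CACGTG, so its matches fell at 4 places, from base -229 to base -33 before the annotated start. ABI1 had 1 match, at -286 to -282, and HAI3 had 2, at -118 and at -35. HAB2 also had 2, HAB1 had 1, and AHG1 had 2 that overlapped in a G-box. ABI2 and HAI1 had 0 matches to ACGTG in this window although both rose. The shorter ACGT occurs in both windows, but was not searched for across promoters. A G-box was present in 2 members and in 7.09% of all promoters.

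Other motifs were searched on both strands of the same windows. The core CCGAC of the drought-responsive element DRE was present in 2 members, AHG3 and AHG1, and in 13.9% of all promoters. The short core ATGTA of sites bound by EIN3, the transcription factor of ethylene signalling, was present in 5 members and in 58.9% of all promoters. The GCC box GCCGCC, bound by ethylene response factors, was present in 0 members and in 2.26% of all promoters. A match is not evidence of binding, and no match says only that the letters are absent from this window.

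**Figure D1:**
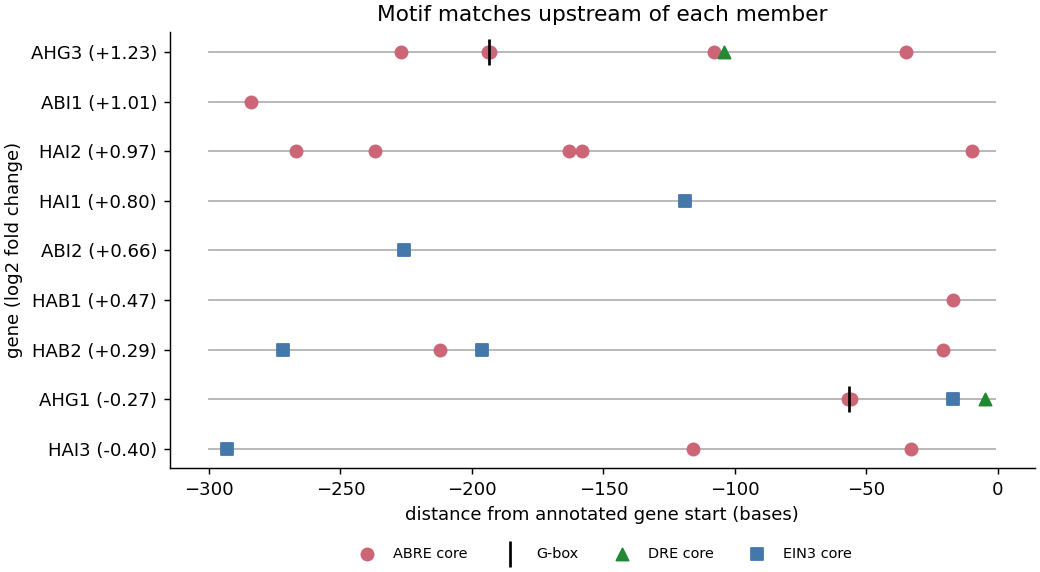
Matches to 4 motifs in the 300 bases before the annotated start of each member (x axis, distance in bases), ordered from the largest to the smallest log2 fold change, ethylene over air, printed beside each name. AHG3 at the top and HAI2, which was not called, have 5 ABRE cores each. ABI1 stands between them with 1, and HAI1 and ABI2 have none.

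In air the members differed widely in level. ABI1 was the highest at 123.2 FPKM, followed by AHG3 at 49.6 FPKM, HAB2 at 34.2 FPKM, HAB1 at 25.2 FPKM, ABI2 at 18.9 FPKM and HAI1 at 10.9 FPKM. HAI2 at 3.10 FPKM, HAI3 at 2.58 FPKM and AHG1 at 0.618 FPKM were the lowest, against a median of 13.0 FPKM over all tested rows. With ethylene the order was the same. The table holds 1 value per group, so no spread between libraries was at hand to tell neighbours in this order apart. ABI1 made up 45.9% of the summed FPKM of the 9 members in air and 49.7% with ethylene. Of the gain in the sum, ABI1 held 54.2% and AHG3 29.0%.

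**Figure D2:**
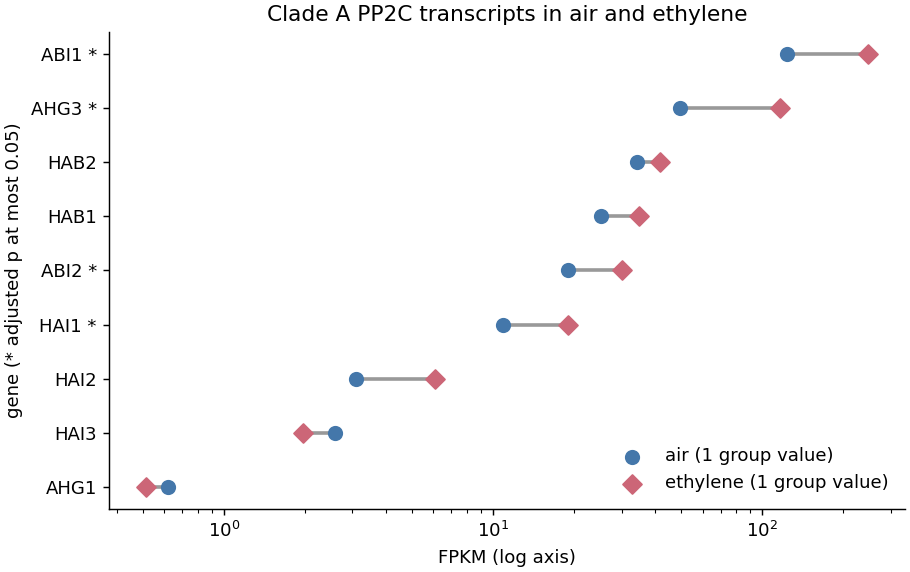
FPKM of each clade A PP2C gene in air (circles) and ethylene (diamonds) on a log axis, with 1 deposited value per group of 2 libraries and no error, and with a star for an adjusted p of at most 0.05. The diamonds lie to the right of the circles for 7 genes and to the left for HAI3 and AHG1.

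ABI1 and ABI2 are the founding pair of the family, known from dominant ABA-insensitive mutants. ABI1 (AT4G26080, chromosome 4, 13219915 to 13222376 in TAIR10.1) was at 123.2 FPKM in the air group and at 247.9 FPKM in the ethylene group. It rose 2.01-fold, a log2 fold change of 1.01, with a Benjamini-Hochberg adjusted p of 0.00227. Its deposited p of 5e-05 is the smallest in the table, so the 95% interval implied by that p, 0.52 to 1.50, is an upper limit of the width. ABI2 (AT5G57050, chromosome 5, 23087122 to 23089631) was at 18.9 FPKM in the air group and at 30.0 FPKM in the ethylene group. It rose 1.58-fold, a log2 fold change of 0.66 with an implied interval of 0.30 to 1.03 and a Benjamini-Hochberg adjusted p of 0.0105. Both genes rose and their intervals overlapped. ABI1 was 6.50 times as high as ABI2 in air and 8.27 times as high with ethylene, a difference that was not tested.

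AHG3, also called PP2CA, is a phosphatase that acts strongly in germination and also on anion channels of guard cells. AHG3 (AT3G11410, chromosome 3, 3583782 to 3585850) was at 49.6 FPKM in the air group and at 116.3 FPKM in the ethylene group. It rose 2.35-fold, the largest log2 fold change of the 9 members at 1.23, with a Benjamini-Hochberg adjusted p of 0.00227. Its implied interval, 0.64 to 1.82, is again an upper limit of the width. ABI1 and AHG3 were the only members that were at least 2-fold higher. Of 13922 tested rows with at least 5 FPKM in the larger group and values above 0 in both, 1.57% were at least 2-fold higher at any p. The log2 fold changes of ABI1 and AHG3 stood at percentiles 96.3 and 97.3 of all tested rows.

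**Figure D3:**
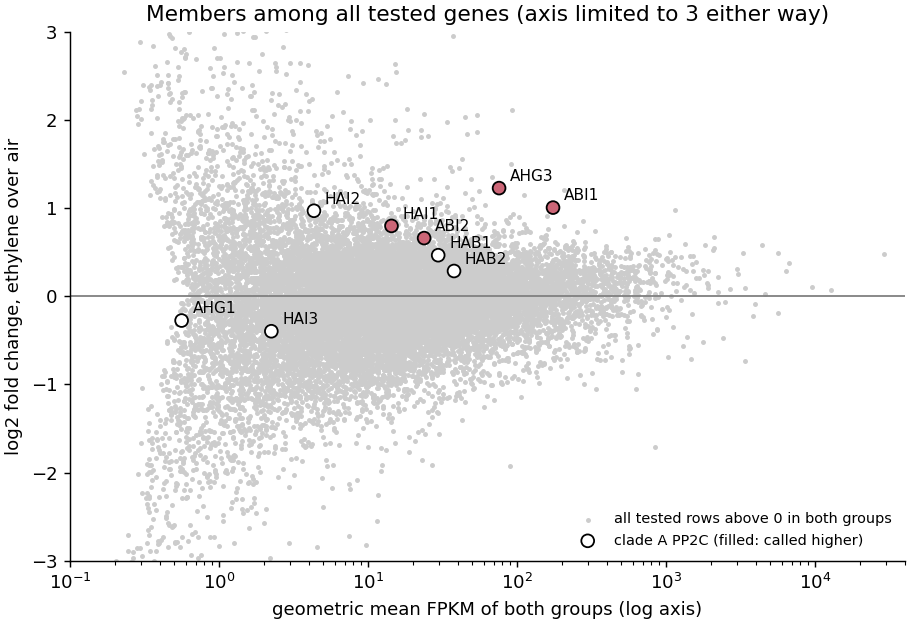
Log2 fold change, ethylene over air, against the geometric mean FPKM of both groups (log axis) for all tested rows above 0 in both groups (grey) and for the 9 clade A PP2C genes (named circles, filled where called higher). AHG3 and ABI1 lie at the upper edge of the grey cloud at their level, and HAB1 and HAB2 lie within it.

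The HAI genes, highly ABA-induced PP2Cs named for their strong response to the hormone, did not all pass the test. HAI1 (AT5G59220, chromosome 5, 23894404 to 23896939) was at 10.9 FPKM in the air group and at 19.0 FPKM in the ethylene group. It rose 1.74-fold, a log2 fold change of 0.80 with an implied interval of 0.36 to 1.24 and a Benjamini-Hochberg adjusted p of 0.0115. HAI2 (AT1G07430, chromosome 1, 2280746 to 2282828) was at 3.10 FPKM in the air group and at 6.09 FPKM in the ethylene group. Its log2 fold change of 0.97 was close to that of ABI1, but its implied interval was wide, 0.27 to 1.67, and it was not called, at a Benjamini-Hochberg adjusted p of 0.0783. HAI3 (AT2G29380, chromosome 2, 12608675 to 12610350) was at 2.58 FPKM in the air group and at 1.96 FPKM in the ethylene group, a log2 fold change of -0.40 that was not called, with an implied interval of -1.50 to 0.71. HAI2 and HAI3 were at like levels in air, with a ratio of 1.20, and at a ratio of 3.10 with ethylene, a difference that was not tested and whose implied intervals overlapped.

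HAB1 and HAB2 are a pair of close homologues of ABI1, and HAB1 is the member best known for binding the kinase OST1. HAB1 (AT1G72770, chromosome 1, 27389948 to 27393327) was at 25.2 FPKM in the air group and at 34.9 FPKM in the ethylene group. Its log2 fold change of 0.47 had an implied interval wholly above 0, from 0.14 to 0.80, but it was not called, at a Benjamini-Hochberg adjusted p of 0.0669. HAB2 (AT1G17550, chromosome 1, 6034270 to 6037398) was at 34.2 FPKM in the air group and at 41.8 FPKM in the ethylene group, a log2 fold change of 0.29 with an implied interval of -0.02 to 0.60, and was not called. The upper bound of HAB2 lay below the lower bound of AHG3, but a difference between these members was not tested. AHG1 (AT5G51760, chromosome 5, 21026805 to 21029188), a phosphatase known from seeds that most ABA receptors do not inhibit, was near the floor of the table at 0.618 FPKM in air and 0.511 FPKM with ethylene. Its implied interval of -2.28 to 1.73 on the log2 scale covers a change of more than 2-fold in either direction, so no difference was detectable at this level.

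**Figure D4:**
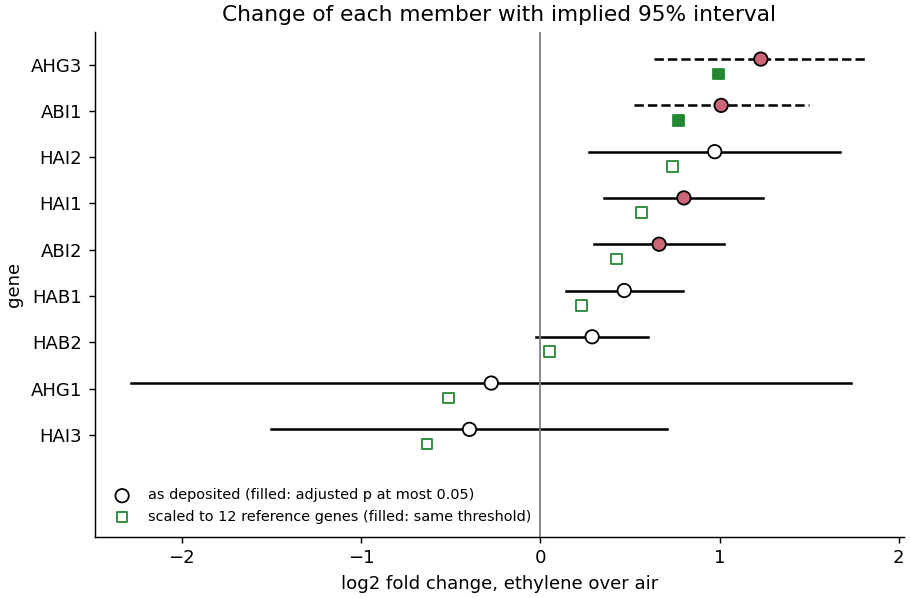
Log2 fold change, ethylene over air, of each member as deposited (circles, lines show the 95% interval implied by the deposited p, dashed where the width is an upper limit) and after scaling to 12 reference genes (squares). Filled symbols have an adjusted p of at most 0.05, which holds for 4 circles and for 2 squares.

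The calls of ABI2 and HAI1 depended on the scaling of the libraries. Centred on the median of all tested rows, both stayed called, with Benjamini-Hochberg adjusted p-values of 0.00783 and 0.00903. The 12 reference genes, which include actin, ubiquitin and GAPC genes, were all higher with ethylene at any p, with a median log2 fold change of 0.24, and 1 of them, AT5G60390, was called higher. When every log2 fold change was lowered by that median, the median of all tested rows went from -0.02 to -0.26. ABI1 and AHG3 were still called higher, at log2 fold changes of 0.77 and 0.99 with Benjamini-Hochberg adjusted p-values of 0.0195 and 0.0125. ABI2 and HAI1, at 0.43 and 0.56, were no longer called, with Benjamini-Hochberg adjusted p-values of 0.108 and 0.0751. On that scale 0.663% of all rows were called higher and 13.4% lower, or 124 and 2500 rows against 405 and 781 as deposited. HAB1 and HAB2, not called on either scale, were then at 0.23 and 0.05. The sum of the members was then 1.58 times as high with ethylene.

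The members share a gene structure beyond their family name. Each has 3 or 4 coding exons and a coding sequence of 1089 to 1536 bases, and they lie on chromosomes 1, 2, 3, 4 and 5. Aligned coding sequences were 77.7% identical between ABI1 and ABI2, 77.1% between HAB1 and HAB2 and 70.1% between HAI2 and HAI3, and 63.6% between HAI1 and HAI2. Within these coding sequences, the longest stretch that any pair had in common was 33 bases, between HAB1 and HAB2, followed by 26 bases between ABI1 and ABI2. Untranslated parts of the transcripts were not compared. Read length is not stated in the sources used here, so how the authors assigned reads from such stretches was not tested. In the closest pairs, ABI1 and ABI2 were both called higher, and HAB1 and HAB2 had log2 fold changes of 0.47 and 0.29 without a call. HAI2 and HAI3 had 0.97 and -0.40, also without a call and with overlapping intervals.

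Other PP2C clades were set beside clade A. Of 8 tested clade D genes, phosphatases known to act on plasma membrane proton pumps in auxin-driven growth, 0 were called in either direction, and 2 had an unadjusted p under 0.05, both lower, where 11% of all rows were. The median log2 fold change of the 8 clade D genes was -0.05, in a range from -0.78 to 0.30. The most highly expressed of them, AT4G38520 and AT3G51370, had 0.03 and 0.06. Of 2 tested clade B genes and 3 tested clade E genes 0 were called. At an unadjusted p under 0.05 these counted 0 in clade B and 1, lower, in clade E. AP2C1 of clade B, a phosphatase of MAP kinases, had a log2 fold change of -0.13, and AT1G67820 of the same clade had 1.12. AT1G67820 was low, at 1.65 FPKM in air and 3.58 FPKM with ethylene, and its implied interval was wide, -0.26 to 2.49. In clade E AT5G27930 had 0.00 and AT3G05640 had -0.54. Scaled to the reference genes as above, 2 clade D genes and 1 clade E gene were called lower and 0 higher. On that scale 13.4% of all rows were called lower and 0.663% higher. The difference between clades was not tested.

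Among the partners of the phosphatases in ABA perception, the receptor genes held 1 call. Of the 14 PYR/PYL receptor genes 8 were tested. Among these 0 were called higher and 1 lower, where 2.17% and 4.18% of all tested rows were. Their median log2 fold change was -0.19, with 3 values above 0. PYR1, the founding receptor, fell from 69.8 to 36.9 FPKM (-0.92 on the log2 scale). PYL8, the most highly expressed receptor gene and chosen after its value was seen, was at 147.8 FPKM in the air group and at 134.9 FPKM in the ethylene group and was not called. The other 6 receptor genes were listed at 0 in both groups, and a 0 listed there may also be an estimate that failed. Scaled to the reference genes 2 receptor genes were called lower, as were 13.4% of all rows. Summed over the list, receptors came to 417.6 FPKM in air and to 352.2 FPKM with ethylene.

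Of the 10 SnRK2 kinase genes, all tested, 0 were called higher and 3 lower, where 2.17% and 4.18% of all tested rows were. Their median log2 fold change was -0.30. OST1, the kinase of stomatal closure and a direct target of clade A phosphatases, fell from 48.7 to 33.3 FPKM (-0.55 on the log2 scale). SNRK2.10 fell from 50.7 to 28.7 FPKM and SNRK2.5 from 166.7 to 109.5 FPKM, with log2 fold changes of -0.82 and -0.61. Centred on the median of all tested rows, 2 kinase genes were called lower. OST1 then just missed the threshold, at a log2 fold change of -0.52 and a Benjamini-Hochberg adjusted p of 0.0564 against 0.0442 as deposited. Scaled to the reference genes 4 kinase genes were called lower, as were 13.4% of all rows. SNRK2.5 and SNRK2.10 belong to a subclass known for osmotic stress more than for ABA. SNRK2.2 and SNRK2.3, the other ABA-activated kinases, were chosen after their values were seen, and had log2 fold changes of 0.16 and -0.11 without a call.

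NCED3, which encodes the rate-limiting cleavage enzyme of ABA synthesis under stress, rose from 3.83 to 15.3 FPKM, which is 1.99 on the log2 scale. It was the 1 call among 10 tested genes of ABA synthesis and breakdown, where 2.17% of all tested rows were called higher. Of 6 tested ABA transcription factor genes 0 were called. ABF3 and ABF2, activators that bind the ABRE, had log2 fold changes of 0.37 and 0.43 and unadjusted p-values of 0.0312 and 0.0111. Their Benjamini-Hochberg adjusted p-values were 0.208 and 0.112. Scaled to the reference genes ABF3 and ABF2 were at 0.13 and 0.20, with Benjamini-Hochberg adjusted p-values of 0.672 and 0.496. Of 7 tested genes for proteins known to bind or degrade PP2Cs 0 were called in either direction. PUB12, chosen after its value was seen, had an unadjusted p under 0.05 and was lower, as were 11% of all rows. It was the 1 such gene of the 7. Scaled to the reference genes it was called lower, as were 13.4% of all rows. ROP11 and AT5G22090 had log2 fold changes of 0.17 and 0.07.

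ABA-responsive target genes did not move as 1 group. Of 17 tested, 2 were called higher and 4 lower, where 2.17% and 4.18% of all tested rows were. The median log2 fold change of the 17 was 0.05. RD26, a NAC transcription factor gene, rose from 16.2 to 28.8 FPKM, and P5CS1, which encodes a proline synthesis enzyme, rose by 0.48 on the log2 scale. KIN1 fell from 67.8 to 29.4 FPKM and ERD10, a dehydrin gene, from 161.1 to 89.1 FPKM. COR47, also a dehydrin gene, and RD29A fell by 0.72 and by 0.46 on the log2 scale. P5CS1, COR47 and RD29A are named to complete these counts, after their values were seen. Scaled to the reference genes 0 were called higher and 6 lower, where 0.663% and 13.4% of all rows were. The calls of RD26 and P5CS1 were thus lost on that scale.

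**Figure D5:**
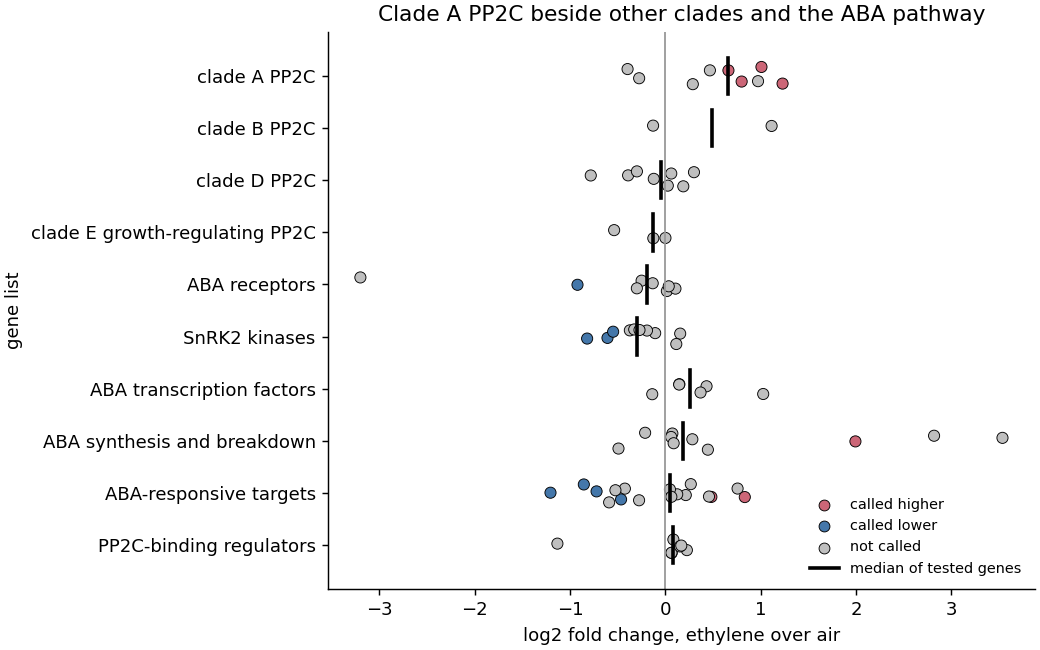
Log2 fold change, ethylene over air, of the tested genes above 0 in both groups, by list, with the median of each list as a black bar and called genes in colour. The clade A bar stands at 0.66, those of the receptors and SnRK2 kinases at -0.19 and -0.30. Clade B, with 2 tested genes, has its bar at 0.49, ABA transcription factors at 0.26 and ABA synthesis and breakdown at 0.19. The remaining bars lie from -0.13 to 0.09.

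Levels of cell type markers were read beside these results. Dark-grown seedling and root markers were all present, among them PORA at 1873 FPKM and PYK10 at 4093 FPKM in air, and 1 of these 9, PORA, was called, lower. Of 5 seed markers 3 were called higher, CRC, CRA1 and OLEO2, and the list summed to 69.5 FPKM in air and 160.2 FPKM with ethylene. Of 4 guard cell markers 2 were called lower, MYB60 and KAT1, and the list summed to 28.5 FPKM in air and 15.2 FPKM with ethylene. Over all tested rows 2.17% were called higher and 4.18% lower. No marker in these lists was at 0 in either group. Their part in the clade A result was not tested. In RNA from whole seedlings, fewer cells of a type and less RNA per cell cannot be told apart. TREE1 (AT4G35610) was listed at 0 in air and 0.327 FPKM with ethylene and DAZ3 at 0 in both, without a test.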

How the data were processed

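RNA-seq libraries of whole seedlings were made by the authors, 2 per group. The submitters' processing notes name TopHat2 2.0.9, Cuffdiff 2.0.1 and the TAIR10 build, while settings and scaling are not stated in the sources used here. Each group has a single value in the deposited table, taken as FPKM because Cuffdiff is named. Spread and depth of single libraries are therefore unknown. The p-value in the deposited table carries no adjustment, and may hold technical spread only. The deposited log2 fold change equalled the log2 ratio of both groups within 0.001 in 19947 of 19948 rows, and the ratio was used. Rows without a gene name (243), which held 86.0% of the FPKM sum in air and 88.9% with ethylene, were left out.

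P-values below 1 were adjusted by the Benjamini-Hochberg method over all 18696 named rows, in place of the authors' q-values that had been planned, with a threshold of 0.05. Standard errors and 95% intervals were derived from that p by assuming a normal distribution. For the 411 rows at the smallest p they are upper limits, so rescaled values there may wrongly miss the threshold. The calculation was tested on simulated data. The members and the 16 gene lists were chosen with earlier results of these data known. Named were every member and, of each other list, up to 3 called genes with the largest change or, with none called, the 2 with the highest mean FPKM. Loci in merged or repeated rows were left out of list counts. Symbols that the reference does not give were replaced by the locus identifier.

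Sequences came from the RefSeq TAIR10.1 genome and annotation, in which all 9 members were found. The table holds no coordinates. The planned protein identity was replaced by identity of the longest coding sequences, aligned with MAFFT 7.526. Motif matches that overlap were counted apart. Calculations used numpy 2.4.6, scipy 1.17.1 and pandas 2.3.3 under Python 3.11.15, and figures matplotlib 3.10.9. Alternatives were other thresholds, filters, pseudocounts and scalings.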

Additional observations from a re-analysis of the deposited data

How the results depend on the processing

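No member changed sign under any alternative that gave it a value, but thresholds, filters and pseudocounts cannot change a sign. Scaled to the reference genes, HAB2 stayed above 0 by 0.05 only. The implied intervals of HAB2, AHG1 and HAI3 include 0, so their directions are not established. At an adjusted threshold of 0.01, 2 members were called higher, ABI2 (log2 fold change 0.66) and HAI1 (0.80) being lost, and 190 rows were higher and 409 lower. At 0.10, HAB1 (0.47) and HAI2 (0.97) were called as well, with 631 rows higher. Scaled to the reference genes, 2 members were called, ABI2 (0.43) and HAI1 (0.56) were lost, 124 rows were higher and 2500 lower, and the ratio of the summed members was 1.58. This follows from the shift of 0.24 taken from every value. ABI1 and AHG3 were called under all alternatives of scaling, filter and threshold, with adjusted p-values up to 0.0195 and 0.0125. Single-locus rows, minimums of 1 or 5 FPKM and centring on all rows changed no member's call. AHG1 at 1 FPKM and AHG1 and HAI3 at 5 FPKM fell under the minimum and have no value there. Pseudocounts of 0.1 or 1 FPKM moved no member by more than its implied error. Leaving out each member in turn gave ratios of the sum from 1.73 to 1.95. No paired analysis was possible because the table has 1 value per group, and for the same reason no replicate could be left out. Depth per library is unknown, which limits HAI2, HAI3 and AHG1 most.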
